A study of Mus musculus with 6 samples.

Results

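The genes examined here control meiotic arrest in the mouse oocyte. They are the 9 genes Gpr3, Adcy3, Pde3a, Nppc, Npr2, Wee2, Cdc25b, Mos and Fbxo43, chosen by symbol, and each matched 1 row of the 47205 rows in the deposited table. All 9 are protein coding and all 9 passed the filter for low values, which asked for an average of 1 FPKM or more across the libraries. FPKM divides the fragments of a gene by its length and by the library's size, which was here already scaled between libraries. The division by length lets levels be set against each other between genes. Whole ovaries of mice at 9 days post partum were sequenced in 3 libraries from mice whose granulosa cells had lost Srsf1, a splicing factor gene (genotype SRSF1 cKO, called cKO here), and in 3 libraries from wild-type mice (WT). The labels name no Cre driver, floxed allele or strain, nor any allele carried by the WT mice, and nothing says that the libraries of a group came from separate animals. The p-values therefore measure only the spread among these libraries, which may be technical.

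A mouse oocyte stops in prophase of its first meiotic division and is held there while its follicle grows. A receptor on the oocyte keeps adenylate cyclase active, and the cAMP that results activates protein kinase A, which keeps cyclin-dependent kinase 1 in its inhibited state. Granulosa cells supply cGMP, which passes through gap junctions into the oocyte and blocks the phosphodiesterase that would break cAMP down. Once arrest ends, a separate set of proteins holds the egg again at metaphase II until fertilization. Follicles at this age are still growing, before any luteinizing hormone surge.

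Promoter sequence shows how differently these genes are built. Start sites were taken from a RefSeq table (GRCm38.p6), in which 6 of the 9 genes were matched, Adcy3 with 2 starts; Pde3a, Mos and Fbxo43 were not matched in that table. The 250 bases upstream of the start are printed for Nppc and Gpr3, which had the largest estimated differences between the groups, and for Wee2, an oocyte kinase gene with little spread. Capitals mark matches on either strand to the TATA box (TATAAA), the CCAAT box (CCAAT), the GC box (GGGCGG), the E-box (CANNTG), the NOBOX element (TAATTG) and a cAMP response core (TGACG). Neighbouring matches run together in Gpr3, where GC boxes overlap. All sequences read 5′ to 3′ on the strand of the gene.
Nppc (GRCm38.p6, chr1:86670574-86670823, minus strand): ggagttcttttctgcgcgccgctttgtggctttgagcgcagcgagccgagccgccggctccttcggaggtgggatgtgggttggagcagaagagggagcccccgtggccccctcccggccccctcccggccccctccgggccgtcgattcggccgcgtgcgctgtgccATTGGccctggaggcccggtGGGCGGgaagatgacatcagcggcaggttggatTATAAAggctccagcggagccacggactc
Gpr3 (GRCm38.p6, chr4:133212537-133212786, minus strand): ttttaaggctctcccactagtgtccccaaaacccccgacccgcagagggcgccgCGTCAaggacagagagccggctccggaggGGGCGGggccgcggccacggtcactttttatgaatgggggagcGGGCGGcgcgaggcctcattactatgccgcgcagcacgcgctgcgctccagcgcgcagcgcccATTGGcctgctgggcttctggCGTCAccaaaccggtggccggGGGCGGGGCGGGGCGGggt
Wee2 (GRCm38.p6, chr6:40442613-40442862, plus strand): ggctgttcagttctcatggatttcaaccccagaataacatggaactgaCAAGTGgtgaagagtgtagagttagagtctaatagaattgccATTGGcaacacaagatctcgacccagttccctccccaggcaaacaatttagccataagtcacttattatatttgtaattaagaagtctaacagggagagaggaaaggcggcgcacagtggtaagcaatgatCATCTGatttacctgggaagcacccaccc

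The Nppc window had a TATA box from 29 to 24 bases upstream of the start, and no other window of these genes matched that motif, which is found in 12.4% of all 32851 RefSeq windows of that length. CCAAT boxes matched in 5 of the 6 genes, Npr2 excepted, and in 5 of their 7 windows, against 33.8% of all windows. GC boxes matched in 4 of the 6 genes and 4 of the 7 windows, against 32.7%, with 5 matches in Gpr3 alone. E-boxes matched in Npr2 and Wee2 only, 2 of the 7 windows, against 66.2% of all windows. The NOBOX element matched in 0 of the 7, against 7.17%. The cAMP response core matched in Gpr3 and Cdc25b, 2 of the 7 windows, against 17.8%. G and C made up 69.2% of the Nppc window and 70.8% of the Gpr3 window, but 44.4% of the Wee2 window, against a median of 52.4% over all windows. These matches describe letters in a window and do not show that any factor binds there.

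Srsf1 stood at 20.3, 26.9 and 21.4 FPKM in the cKO libraries, against 39.9, 49.6 and 46.3 FPKM in WT. The cKO libraries were all below the WT libraries, the direction that the labels give, at a log2 fold change of -0.96 (SE 0.134) and a limma adjusted p of 0.32. Library sizes, as reads recovered from the FPKM values, were 18.6 to 18.7 M in cKO and 16.8 to 18.5 M in WT. Of the 14714 genes tested, 3 passed an adjusted p of 0.05 (0.0204%), and in 12.3% the cKO and WT libraries did not overlap.

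None of the 9 meiotic arrest genes passed the test in either direction (limma, smallest adjusted p = 0.825). That is 0 higher, against 0.0068% of all genes tested, and 0 lower, against 0.0136%. None had an unadjusted limma p under 0.05, against 6.34% of all genes tested. On recovered reads, limma-voom found 0 members at either level. Of all 14714 genes, 907 had an unadjusted limma-voom p under 0.05 and 0 passed the adjusted threshold. The adjusted count by limma-voom therefore cannot set the members apart. The libraries of cKO and WT overlapped for every member. The estimates were negative in 7 members and positive in 2, Nppc and Fbxo43. Their median log2 fold change was -0.06, against -0.00 for all genes tested, and the median size without sign was 0.09 against 0.11.

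**Figure D1:**
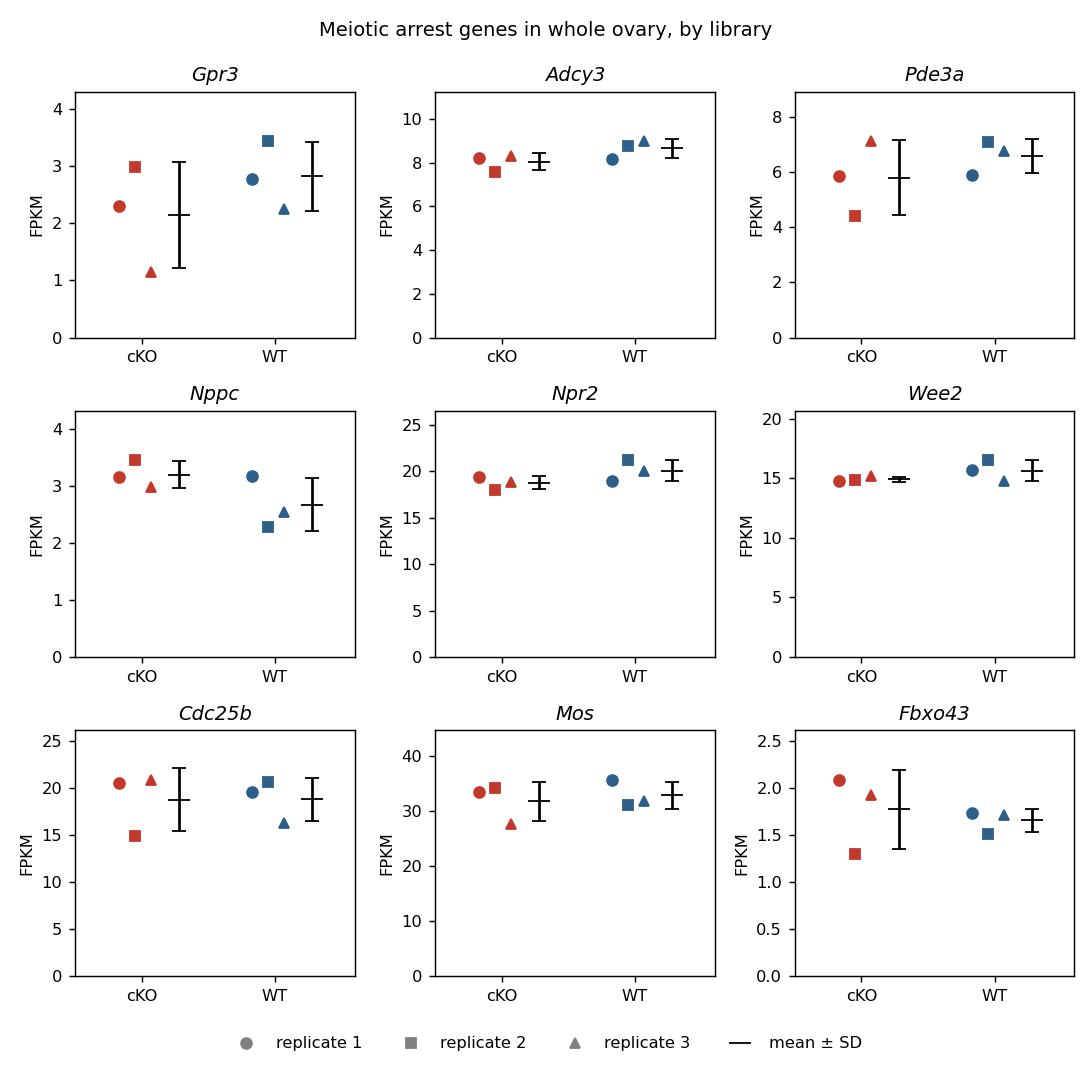
FPKM (y axis, from 0) of each meiotic arrest gene in the 3 cKO and 3 WT libraries; the marker shape gives the replicate number and the black bars the mean ± SD. The libraries of the groups overlap in all 9 panels, and the cKO libraries of Gpr3 run from 1.14 to 2.99 FPKM, a coefficient of variation of 43.5%.

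The levels ran over a wide range. Mos was the highest in both groups, at 31.8 ± 3.56 FPKM in cKO and 32.9 ± 2.49 FPKM in WT (SD, n = 3 each), above 86.4% of the genes tested. Fbxo43 was the lowest, at 1.77 ± 0.415 FPKM in cKO and 1.65 ± 0.122 FPKM in WT, above 10.8% of them. From high to low, the order in cKO was Mos, Npr2, Cdc25b, Wee2, Adcy3, Pde3a, Nppc, Gpr3 and Fbxo43. In WT it was the same but for Gpr3, which came before Nppc. Neighbours whose libraries overlapped were Npr2 with Cdc25b and Cdc25b with Wee2 in both groups. Nppc and Gpr3 also overlapped in both groups, and Gpr3 and Fbxo43 in cKO. Levels of Mos stood clear of all other members in each group.

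Gpr3 encodes the constitutively active receptor on the oocyte surface that stimulates cAMP production (GRCm39, chromosome 4, 132936651 to 132939847, minus strand). Its level was 2.29, 2.99 and 1.14 FPKM in the cKO libraries, in the order of their replicate numbers here and throughout, against 2.76, 3.44 and 2.25 FPKM in WT. The low value is cKO replicate 3, while cKO replicates 1 and 2 lie inside the WT range. That library held 45 reads of the gene, with an exact 95% Poisson interval of 0.835 to 1.53 FPKM that covers counting error only, and the other 5 libraries held 89 to 134 reads. The log2 fold change was -0.32 (SE 0.248, limma adjusted p = 0.844), and with 1 library left out it ran from -0.06, without cKO replicate 3, to -0.51, without cKO replicate 2. On recovered reads, limma-voom put the 95% interval of the cKO to WT ratio at 0.406 to 1.28, so that a ratio of 0.5 remains inside it. The coefficient of variation was 43.5% in cKO, where counting alone would give about 10.1%.

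The related receptor Gpr12, a paralogue named whatever its values, was at the edge of detection, with 1 to 11 reads in cKO and 0 to 2 reads in WT. That is at most 0.157 FPKM in cKO and 0.0319 FPKM in WT. Gpr3 held more reads than Gpr12 in each of the 6 libraries.

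Adcy3 encodes the adenylate cyclase that is prominent in rodent oocytes (chromosome 12, 4183397 to 4263525, plus strand). It stood at 8.22, 7.59 and 8.33 FPKM in cKO, against 8.19, 8.79 and 9.00 FPKM in WT. All 6 libraries lie close together, with cKO replicate 2 lowest. A log2 fold change of -0.09 was estimated (SE 0.0885, limma adjusted p = 0.863), with a 95% interval of -0.30 to 0.11. Cenpo, a kinetochore gene on the opposite strand, overlaps it over 19978 bases and averaged 2.09 FPKM in cKO and 2.32 FPKM in WT. Strandedness is not given, so reads of the shared stretch cannot be told apart.

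Pde3a encodes the phosphodiesterase of the oocyte that breaks down cAMP and is inhibited by cGMP (chromosome 6, 141194995 to 141452588, plus strand). It stood at 5.86, 4.42 and 7.14 FPKM in cKO, against 5.90, 7.10 and 6.76 FPKM in WT. Replicates 2 and 3 of cKO were the lowest and the highest of all 6 libraries. The estimated difference on the log2 scale was -0.17 (SE 0.162, limma adjusted p = 0.863), and with 1 library left out it ran from -0.02, without cKO replicate 2, to -0.31, without cKO replicate 3. These libraries held 1205 to 1856 reads of the gene, for which counting gives a coefficient of variation of about 2.49%, against the 23.4% seen in cKO. Its paralogue Pde3b, which is better known from fat and liver, stood at 3.01 ± 0.391 FPKM in cKO and 3.43 ± 0.269 FPKM in WT (SD, n = 3 each). The Pde3a to Pde3b ratio of levels was 1.91 ± 0.235 in cKO and 1.92 ± 0.0672 in WT.

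Nppc encodes C-type natriuretic peptide, the granulosa ligand that starts the cGMP signal (chromosome 1, 86594015 to 86598295, minus strand). It stood at 3.15, 3.45 and 2.98 FPKM in cKO, against 3.18, 2.27 and 2.55 FPKM in WT. The cKO libraries lie together at the upper end, but WT replicate 1 is among them. The difference of cKO over WT was 0.20 in log2 units (SE 0.133, limma adjusted p = 0.825), the smallest p of the 9 genes. It rests on 57 to 69 reads per library in cKO and 43 to 57 in WT. On recovered reads the 95% interval of the cKO to WT ratio was 0.812 to 1.80. Without WT replicate 2 the log2 fold change was 0.12, and without WT replicate 1 it was 0.30.

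Npr2 encodes the guanylate cyclase receptor of that peptide (chromosome 4, 43629015 to 43651437, plus strand). It stood at 19.4, 18.0 and 18.9 FPKM in cKO, against 18.9, 21.2 and 20.1 FPKM in WT. The lowest WT library, replicate 1, lies inside the cKO range. The log2 fold change was -0.09 (SE 0.0832, limma adjusted p = 0.862), and the 95% interval, -0.29 to 0.11, corresponds to a ratio of 0.82 to 1.08 on the FPKM + 1 scale. With 2211 to 2616 reads per library this was the member with the most reads. The level of the ligand over that of the receptor was 0.170 ± 0.0181 in cKO and 0.134 ± 0.0311 in WT (SD, n = 3 each), with overlapping libraries.

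The granulosa marker list, against which this ligand and receptor pair can be set, stood lower in cKO as a sum. Its 12 genes summed to 816 to 902 FPKM in cKO and to 924 to 1011 FPKM in WT, and the groups did not overlap. All 12 were detected, and Inhba, an activin subunit gene, was the 1 below the filter. Of the 11 tested, 3 had positive and 8 had negative estimates, and 0 passed the test. The markers with the highest levels were Inha, the inhibin alpha subunit gene, at 153 ± 27.2 FPKM in cKO and 159 ± 25.2 FPKM in WT, and Foxl2, the granulosa transcription factor gene, at 120 ± 13.5 FPKM in cKO and 189 ± 44.9 FPKM in WT. In whole ovary, fewer cells of a type and less RNA per cell cannot be told apart. Set against the mean log2 level of the list, Nppc was higher in cKO by 0.42 and Npr2 by 0.13, and in each the groups did not overlap (exact two-sided permutation p = 0.1 for each, the smallest that 3 against 3 libraries allow). With markers of at least 5 FPKM only, the exact permutation p of Npr2 was 0.2 and its groups overlapped. With 1 library left out, the exact permutation p was 0.1 to 0.2 for each gene. The background for this measure was high, since for 33% of all genes tested all 3 cKO values lay above all 3 WT values on it. These differences hold the marker list's own shift, since the list was subtracted and its mean was lower in every cKO library. Without the subtraction, the log2 fold changes were 0.20 for Nppc and -0.09 for Npr2, so the positive value of Npr2 arises in the subtraction. Why the list stood lower was not tested.

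**Figure D2:**
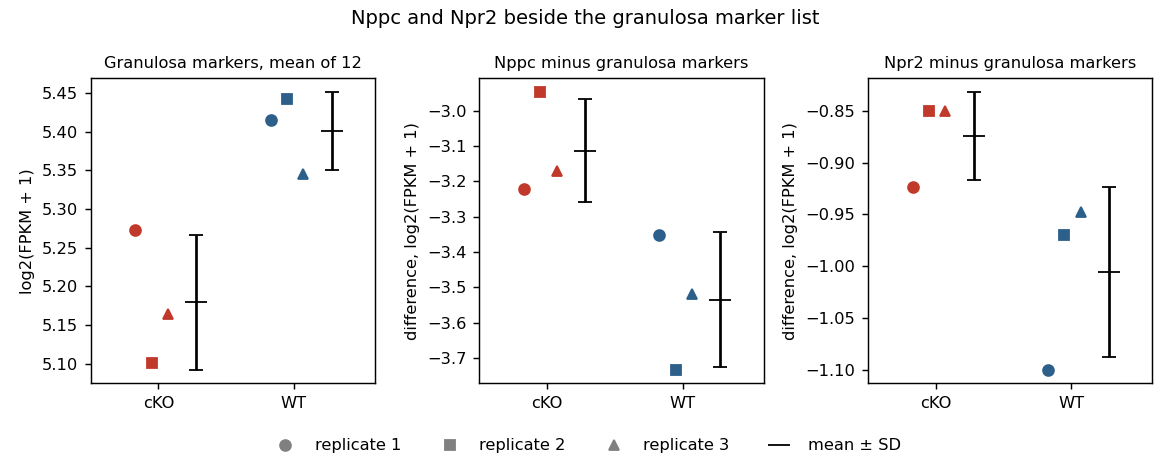
Mean log2(FPKM + 1) of 12 granulosa markers (left), and Nppc (middle) and Npr2 (right) minus that mean, in each cKO and WT library; black bars give the mean ± SD, and the y axes do not start at 0. The mean of the markers is lower in every cKO library than in every WT library, though not every marker is. The Nppc difference averages -3.11 in cKO and -3.53 in WT.

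Wee2 encodes the oocyte kinase that inhibits cyclin-dependent kinase 1 during prophase arrest (chromosome 6, 40412180 to 40443749, plus strand). It stood at 14.7, 14.9 and 15.2 FPKM in cKO, against 15.7, 16.5 and 14.7 FPKM in WT. The cKO libraries were tightly grouped, with a coefficient of variation of 1.46%, and WT replicate 3 lay beside them. The log2 fold change was -0.06 (SE 0.0815, limma adjusted p = 0.894), with the narrowest 95% interval of the 9 genes, -0.26 to 0.13. Dennd11 on the opposite strand overlaps the start of the gene over 890 bases and averaged 8.02 FPKM in cKO and 8.80 FPKM in WT. Without known strandedness, reads of this shared stretch cannot be told apart either. The somatic paralogue Wee1 stood at 18.1 ± 3.41 FPKM in cKO and 20.6 ± 1.85 FPKM in WT (SD, n = 3 each).

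Cdc25b encodes the phosphatase that activates cyclin-dependent kinase 1 when meiosis resumes (chromosome 2, 131028356 to 131040431, plus strand). It stood at 20.5, 14.9 and 20.9 FPKM in cKO, against 19.5, 20.6 and 16.3 FPKM in WT. Each group had 1 low library, replicate 2 in cKO and replicate 3 in WT. With these, the estimated log2 fold change was -0.01 (SE 0.154, limma adjusted p = 0.992), and it was 0.14 without cKO replicate 2. Cdc25a, a paralogue active in dividing cells, stood at 16.3 ± 0.187 FPKM in cKO and 16.9 ± 1.45 FPKM in WT. The level of Wee2 over that of Cdc25b was 0.815 ± 0.160 in cKO and 0.837 ± 0.0608 in WT.

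Mos encodes the kinase that starts the MAPK cascade of maturing oocytes and maintains metaphase II arrest (chromosome 4, 3870658 to 3872105, minus strand). It stood at 33.4, 34.2 and 27.7 FPKM in cKO, against 35.7, 31.1 and 31.8 FPKM in WT. The lowest library was cKO replicate 3, and the other cKO libraries lay inside the WT range. The log2 fold change was -0.05 (SE 0.110, limma adjusted p = 0.933), with a 95% interval of -0.31 to 0.21. Without cKO replicate 3 the sign turned, to 0.04.

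Fbxo43 encodes Emi2, the inhibitor of the anaphase-promoting complex that holds the egg at metaphase II (chromosome 15, 36150206 to 36170086, minus strand). It stood at 2.09, 1.30 and 1.92 FPKM in cKO, against 1.73, 1.51 and 1.71 FPKM in WT. The cKO libraries lie on either side of all WT libraries. On the log2 scale the groups differed by an estimated 0.05 (SE 0.157, limma adjusted p = 0.957). On recovered reads the 95% interval of the ratio was 0.734 to 1.50, at 119 to 188 reads per library. Without cKO replicate 1 the log2 fold change was -0.03. The paralogue Fbxo5, which encodes the mitotic inhibitor Emi1, was at a higher level, 12.9 ± 0.517 FPKM in cKO and 12.7 ± 1.20 FPKM in WT (SD, n = 3 each), so that Fbxo43 stood at 0.137 ± 0.0306 of it in cKO and 0.131 ± 0.0196 in WT.

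**Figure D3:**
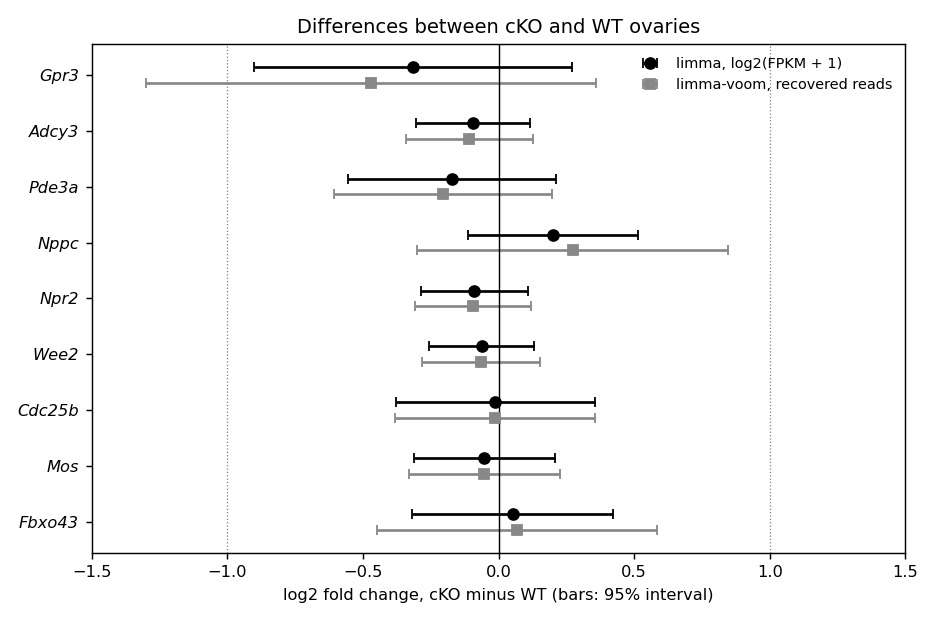
Log2 fold change of cKO over WT (x axis) for each gene, with 95% intervals, from limma on log2(FPKM + 1) (black circles) and limma-voom on recovered reads (grey squares); dotted lines mark 1 and -1. Every interval includes 0, and only that of Gpr3 on recovered reads, -1.30 to 0.36, passes a dotted line.

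The precision differed among the members. For Adcy3, Npr2, Wee2 and Mos the limma 95% intervals lay within -0.31 to 0.21 on the log2 scale. For Pde3a, Cdc25b and Fbxo43 they lay within -0.56 to 0.42. Those of Gpr3 and Nppc were -0.90 to 0.27 and -0.11 to 0.51. The log2(FPKM + 1) scale understates the change of these low genes and of Fbxo43, the lowest member. On recovered reads the limma-voom interval of Fbxo43 was wider, -0.45 to 0.59. These intervals give confidence limits, not limits of detection: with 3 libraries a group, Srsf1 at a log2 fold change of -0.96 did not pass the test either. The test does not show that the levels of the members were equal.

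Deviations from each gene's mean were set side by side by library, as a description. In cKO replicate 2, Pde3a, Cdc25b and Fbxo43 were at their lowest of all 6 libraries, at -0.39, -0.31 and -0.23 from the gene's mean on the log2(FPKM + 1) scale, and Adcy3 and Npr2 were also at their lowest. Nppc was at its highest in the same library. In cKO replicate 3, Gpr3 and Mos were at their lowest, at -0.66 and -0.21, while Pde3a and Cdc25b were at their highest. The mean log2 level of 15 oocyte markers was 6.56, 6.33 and 6.48 in cKO replicates 1, 2 and 3, against 6.57, 6.52 and 6.47 in WT, so cKO replicate 2 was lowest there too. The part of the oocyte share in these deviations was not tested.

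**Figure D4:**
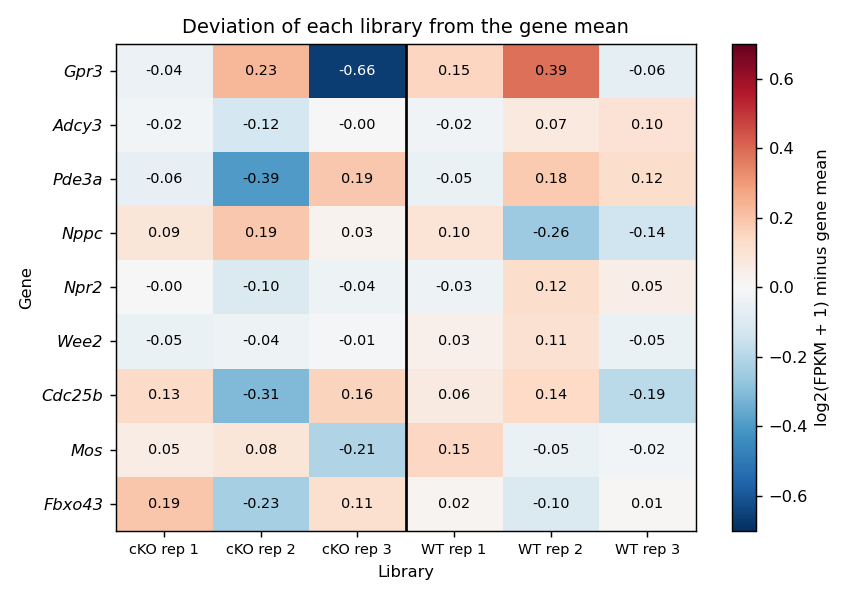
Deviation of each library from the gene's mean over the 6 libraries in log2(FPKM + 1), for the 9 genes (rows) in 3 cKO and 3 WT libraries (columns); red is above and blue below the mean. The deepest blue is Gpr3 in cKO replicate 3 (-0.66), and cKO replicate 2 is blue for Pde3a, Cdc25b and Fbxo43.

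The oocyte markers had similar sums in the groups, 3361 to 3648 FPKM in cKO and 3567 to 3676 FPKM in WT, with 5 of 15 higher and 10 lower and 0 past the test. The oocyte markers with the highest levels were Padi6, a gene of the cytoplasmic lattices, at 974 ± 27.6 FPKM in cKO and 998 ± 44.9 FPKM in WT, and the zona pellucida gene Zp3, at 664 ± 31.4 FPKM in cKO and 630 ± 61.2 FPKM in WT. Set against the mean log2 level of these markers, the 7 members with a known role in the oocyte overlapped between the groups in each case (exact two-sided permutation p = 0.3 to 1). The differences on this measure were -0.25 for Gpr3, -0.11 for Pde3a, -0.03 for Adcy3, 0.00 for Wee2, 0.01 for Mos, 0.05 for Cdc25b and 0.11 for Fbxo43. On this measure, the groups did not overlap in 11.4% of all genes tested.

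Markers of other cell types also differed between the groups in their sums. All 10 leukocyte markers had positive estimates, with sums of 70.4 to 171 FPKM in cKO and 32.2 to 48.5 FPKM in WT, none of them past the test. The highest were the complement genes C1qb, at 22.9 ± 10.4 FPKM in cKO and 7.85 ± 1.42 FPKM in WT, and C1qa, at 20.3 ± 12.3 FPKM in cKO and 6.44 ± 1.06 FPKM in WT. The 9 surface epithelium markers summed to 285 to 387 FPKM in cKO and 189 to 264 FPKM in WT, led by Aldh1a2 and Upk3b. The 8 endothelial markers, led by Cldn5 and Cdh5, summed to 196 to 208 FPKM in cKO and 171 to 180 FPKM in WT. Stroma and theca markers, led by Col1a2 and Col1a1, overlapped, at 2399 to 3112 FPKM in cKO and 2174 to 3113 FPKM in WT. Their part in the members' values was not tested.

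Beyond the 9 members, 109 further genes of these pathways were examined, of which 90 passed the filter and 19 lay below it. None passed the test in either direction (limma, smallest adjusted p = 0.74). Estimates were positive for 28 and negative for 62 of them, against 7352 and 7362 of all genes tested. An unadjusted p under 0.05 was found for 9 of the 90, against 6.34% of all genes tested. Their median log2 fold change was -0.07, and the groups did not overlap in 11 of the 90, against 12.3% of all genes tested.

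**Figure D5:**
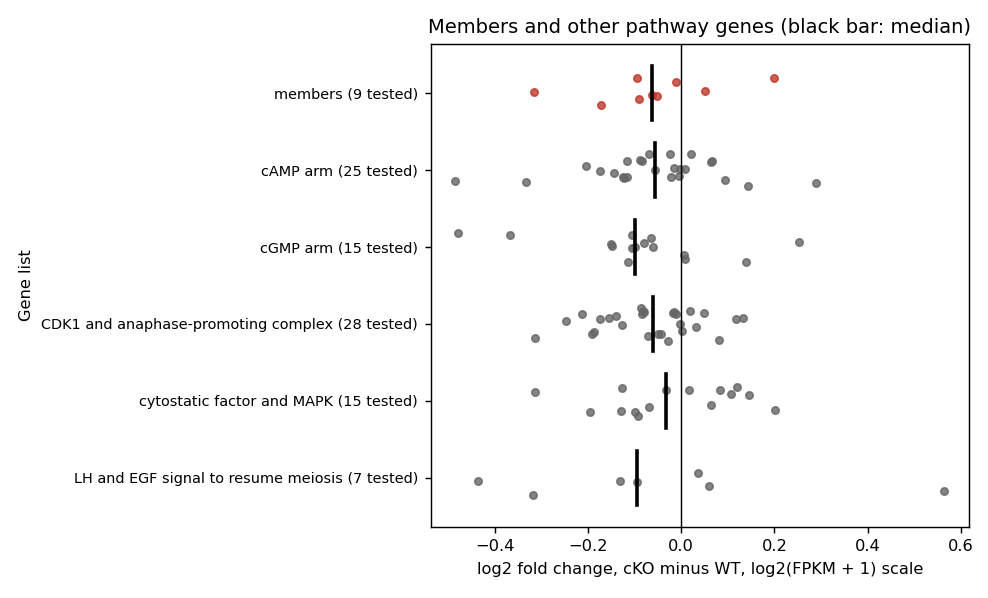
Log2 fold change of cKO over WT on the log2(FPKM + 1) scale (x axis) for the 9 members (red) and the tested genes of 5 pathway lists (grey), with the median of each as a black bar; the height of a point within its row has no meaning. Medians lie between -0.10 and -0.03, and the point farthest to the right is Ptgs1, at 0.56.

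Of the cAMP arm, 25 of 32 genes were tested, 7 with positive and 18 with negative estimates, and 0 passed the test. Prkar2b, a regulatory subunit of protein kinase A, stood at 36.0 ± 6.39 FPKM in cKO and 50.8 ± 9.47 FPKM in WT (SD, n = 3 each; log2 fold change -0.48, limma adjusted p = 0.768). Adcy9, another adenylate cyclase gene, stood at 5.16, 3.55 and 4.55 FPKM in cKO, against 5.51, 6.39 and 5.48 FPKM in WT, without overlap (limma adjusted p = 0.773). Pkig, an inhibitor of protein kinase A, stood at 43.5 ± 7.11 FPKM in cKO and 35.2 ± 1.56 FPKM in WT. Akap1, which anchors the kinase at mitochondria, stood at 14.6 ± 1.40 FPKM in cKO and 17.0 ± 1.63 FPKM in WT.

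Of the cGMP arm, 15 of 20 genes were tested, 4 with positive and 11 with negative estimates, and 0 passed the test. Npr3, the receptor that clears natriuretic peptides, stood at 2.38, 2.25 and 2.76 FPKM in cKO, against 3.05, 4.33 and 4.19 FPKM in WT. All cKO libraries were below all WT libraries (log2 fold change -0.48, SE 0.146, unadjusted p = 0.0132, limma adjusted p = 0.743). Pde2a, a phosphodiesterase stimulated by cGMP, stood at 6.35, 6.35 and 6.88 FPKM in cKO, against 5.10, 5.33 and 5.53 FPKM in WT, again without overlap (limma adjusted p = 0.768). Pde5a, which breaks down cGMP, stood at 6.53 ± 1.49 FPKM in cKO and 8.69 ± 1.59 FPKM in WT. Impdh2, which makes a precursor of guanine nucleotides, stood at 57.0 ± 3.51 FPKM in cKO and 61.2 ± 3.87 FPKM in WT. Npr1, the paralogue of Npr2 that responds to atrial peptide, stood at a higher level than Npr2, 42.3 ± 0.516 FPKM in cKO and 44.9 ± 3.73 FPKM in WT.

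Of the genes of cyclin-dependent kinase 1 and the anaphase-promoting complex, 28 of 29 were tested, 7 with positive and 21 with negative estimates, and 0 passed the test. Bub1b, a spindle checkpoint kinase gene, stood at 22.5 ± 1.54 FPKM in cKO and 26.9 ± 1.34 FPKM in WT. Cdc25c, the third phosphatase of the Cdc25 family, stood at 3.15, 3.99 and 3.41 FPKM in cKO, against 4.40, 5.16 and 4.28 FPKM in WT (log2 fold change -0.31, limma adjusted p = 0.771). Cyclin B1 gene Ccnb1 stood at 41.8 ± 0.584 FPKM in cKO and 46.7 ± 3.88 FPKM in WT, and Mastl, the kinase that keeps the opposing phosphatase off, at 5.16 ± 0.431 FPKM in cKO and 6.01 ± 0.573 FPKM in WT. Many of these genes also serve mitosis of the granulosa cells, and a whole ovary does not tell the cells apart.

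All 15 genes of cytostatic factor and the MAPK cascade were tested, 7 with positive and 8 with negative estimates, and 0 passed the test. The smallest p-values belonged to the ribosomal S6 kinase gene Rps6ka1, at 13.5 ± 1.79 FPKM in cKO and 11.5 ± 1.20 FPKM in WT, and to the checkpoint kinase gene Bub1, at 9.64 ± 1.39 FPKM in cKO and 11.2 ± 1.03 FPKM in WT. Mapk3, the MAP kinase ERK1 downstream of Mos, stood at 136 ± 11.6 FPKM in cKO and 123 ± 9.48 FPKM in WT, and the related kinase gene Rps6ka2 at 5.85 ± 2.05 FPKM in cKO and 7.25 ± 0.949 FPKM in WT.

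Of the genes by which luteinizing hormone and epidermal growth factor signals end arrest, 7 of 13 were tested, 3 with positive and 4 with negative estimates, and 0 passed the test. Ptgs1, which makes prostaglandin precursors, stood at 2.58, 2.63 and 2.22 FPKM in cKO, against 1.46, 0.976 and 1.67 FPKM in WT. All cKO libraries were above all WT libraries, and the difference was 0.56 in log2 units (SE 0.157, limma adjusted p = 0.74). Fshr, the follicle-stimulating hormone receptor gene, which is also on the granulosa marker list, stood at 0.886 ± 0.0437 FPKM in cKO and 1.57 ± 0.413 FPKM in WT (SD, n = 3 each), with every cKO library below every WT library. Egfr, the receptor for the growth factors that granulosa cells release, stood at 5.65, 5.44 and 6.14 FPKM in cKO, against 6.22, 8.01 and 8.10 FPKM in WT (limma adjusted p = 0.771). Ppp1r12a, which encodes a regulatory subunit of myosin phosphatase, stood at 20.1 ± 0.581 FPKM in cKO and 21.6 ± 1.14 FPKM in WT.

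The genes with the pattern most like that of a member were found by the root mean square difference in log2(FPKM + 1), centred on the gene's mean, over 6 libraries and 9111 or 9112 protein-coding genes with at least 5 FPKM. For Nppc they were Ublcp1, Zscan21 and Trmt112, at 0.0349 to 0.0421. For Npr2 they were Tpx2, Tapt1 and Rnf168, at 0.0223 to 0.0238, and for Pde3a Bicc1, Tgfbr1 and Dmxl1, at 0.0263 to 0.0305. So many genes over 6 libraries give close matches by number alone, and the likeness is a description of these libraries.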

How the data were processed

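Whole-ovary RNA was sequenced in 3 cKO and 3 WT libraries, grouped by the sample titles. FPKM values per gene were deposited by the authors in 1 table. The tool HISAT2 2.0.5 and the builds mm10 and GRCm39 appear, with no stated role, per the submitters' processing notes; the chromosome accessions per the file headers are those of GRCm39. No source used here states the counter, the annotation release or the strandedness. FPKM times gene length gave whole reads for 100% of values above 0 (within 0.01), already scaled between libraries by the authors, so no scaling was added. The 14714 genes averaging 1 FPKM or more were tested on log2(FPKM + 1) with limma 3.58.1 in R 4.3.3 (two-sided, trended prior), with Benjamini-Hochberg adjustment over all of them, a threshold of 0.05 and differences as cKO minus WT. Single values set against marker lists were compared by exact permutation over libraries. The test was also run on data simulated from its own fitted variances with normal errors, which cannot show how it behaves with outlying libraries. Members and lists were chosen with earlier results of these data known. Named genes are the members, Srsf1, up to 4 genes of each pathway list with the smallest p-values, the 2 highest markers of each marker list and the 3 nearest genes of Nppc, Npr2 and Pde3a; paralogues are named whatever their values.

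Alternatives were pseudocounts of 0.1 and 0.5, filters at 0.1 and 5 FPKM or none, other scalings (common total, equal medians, quantile), priors without a trend or robust, the replicate number as a block, limma-voom on recovered reads, protein-coding genes only, each library left out, and for relative levels markers of at least 5 FPKM only. The mean reads of a member and the number of libraries limit the precision; Poisson intervals cover counting error only.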

Additional observations from a re-analysis of the deposited data

How the results depend on the processing

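Under all 13 other settings and with each of the 6 libraries left out, 0 members passed the threshold in either direction, with 6 members tested at the filter of 5 FPKM and 9 elsewhere. No gene at all passed with no filter, the replicate block or limma-voom, nor without WT replicate 1 or without WT replicate 3. In those fits the count for the members carries no information about them. None of the tested members changed sign in the 13 other settings. With 1 library left out, the log2 fold change of Cdc25b ran from -0.107 to 0.139, of Mos from -0.107 to 0.0409 and of Fbxo43 from -0.0323 to 0.180, each changing sign; the other 6 kept theirs. Relative to their markers, with 1 library left out, Gpr3 ran from -0.509 to 0.0109, Adcy3 from -0.0935 to 0.0200, Wee2 from -0.0574 to 0.0593, Cdc25b from -0.0189 to 0.141 and Mos from -0.105 to 0.115. With markers of at least 5 FPKM only, Wee2 stood at -0.0222 and Mos at -0.0124. The relative values of Nppc (0.323 to 0.520) and Npr2 (0.0844 to 0.164) stayed positive in all 9 alternatives. Where values changed sign, the cause was not tested.

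Over all genes, 1 was higher in cKO in the reported fit, and 0 were with pseudocounts of 0.1 and 0.5, the filter at 5 FPKM, no filter, quantile normalization, the replicate block, limma-voom and protein-coding genes only. Against 2 genes lower in cKO, 0 were with no filter, the replicate block and limma-voom, and 1 was when only protein-coding genes were kept; leaving out 1 library gave 0 to 1 higher and 0 to 1 lower. Deviations from the group means correlated at 0.18, -0.08 and -0.06 between libraries of the same number, so the numbers do not show a pairing, and cKO replicate 2 correlated best with WT replicate 3 (0.23). Depth limits Nppc (43 to 69 reads), Gpr3 (45 to 134) and Fbxo43 (119 to 188) most.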
